A study of Mus musculus with 6 samples.

Results

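Genes that span the genes of small nucleolar RNAs (snoRNAs) were followed in the spinal cord of mice that lack Sox2 in astrocytes. The 10 genes are Snhg1, Snhg3, Snhg6, Snhg8, Snhg11, Snhg12, Snhg14, Snhg18, Snhg20 and Gas5, and they were found among the 35275 genes of the deposited tables by Ensembl identifier. Snhg20 was chosen from this contrast for its large rise, so its difference between the groups is described and was not tested. Of the 10 genes, 8 had an entry in the tables and 7 had counts, whereas the identifiers of Snhg1 and Snhg8 were not found there.

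The libraries were made from poly(A) RNA of the spinal cord, from 3 Sox2 cKO mice and 3 control (Ctrl) mice of the C57BL/6 strain. The Sox2 cKO mice carried mGfap-Cre and Sox2fl/fl, so that Cre under the mouse Gfap promoter removed Sox2 from cells that had used that promoter. The sample labels give the controls as mGfap-Cre:Sox2+/+, the series design as carriers of either mGfap-Cre or Sox2fl/fl, and the study's methods as floxed littermates. The age is 90 days in the sample characteristics and 80 days in the extraction protocol. By the extraction protocol every sample had an RNA integrity number over 6.8, and a higher minimum stands in the study's methods. Both sexes were present in each group. The libraries are called here by the last digit of their column names, since these names do not identify a replicate. The counted reads were 22444930, 25015776 and 21983098 in Ctrl libraries 2, 4 and 6 against 21507911, 28392184 and 26166638 in Sox2 cKO libraries 1, 3 and 5.

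A snoRNA host gene is transcribed as a precursor whose introns hold snoRNAs, which are trimmed from the spliced introns and guide chemical modification of ribosomal and spliceosomal RNA. Box C/D snoRNAs guide methylation, box H/ACA snoRNAs guide pseudouridylation, and the related scaRNAs act in Cajal bodies. The spliced exons of many noncoding hosts are exported and removed by nonsense-mediated decay (NMD), and their promoters often start transcription at a pyrimidine run shared with ribosomal protein genes. Poly(A) sequencing reports mainly the spliced host RNA, not the snoRNAs.

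Sox2, the deleted transcription factor gene, was examined first. On the CPM scale, counts divided by a library size that TMM had adjusted, Sox2 had 19.9, 14.8 and 29.5 CPM in Ctrl libraries 2, 4 and 6 against 3.16, 2.69 and 2.98 CPM in Sox2 cKO libraries 1, 3 and 5. All 3 Sox2 cKO libraries were below all 3 Ctrl libraries. Sox2 fell, with a log2 fold change of -2.86 (SE, standard error, 0.24; adjusted p = 0.00096 in edgeR's quasi-likelihood test with Benjamini-Hochberg adjustment over the 16137 genes that passed its filter on low counts). Leaving out any of the 6 libraries did not end its call. The tissue holds many cell types, so that fewer cells of a type and less RNA per cell cannot be told apart for any gene below.

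Snhg20 (ENSMUSG00000086859) is a lincRNA gene on the plus strand of chromosome 11, from 117076008 to 117078955 in GENCODE M21 (GRCm38, the build of mm10). Apart from the small RNA genes within it, no other annotated gene lies within 5000 bases. Here and below, small RNA genes within a host are left out of the bases that it shares with other genes. Reads counted on Snhg20 numbered 250, 125 and 99 in Ctrl libraries 2, 4 and 6 against 695, 826 and 475 in Sox2 cKO libraries 1, 3 and 5. The corresponding CPM of Snhg20 were 11.2, 5.20 and 4.78 in Ctrl and 30.5, 28.2 and 17.9 in Sox2 cKO. Every Sox2 cKO library was above every Ctrl library, library 2 was the highest of the Ctrl libraries by a wide margin, and library 5 was the lowest of the Sox2 cKO libraries. Mean CPM was 7.06 ± 3.60 (SD, n = 3) in Ctrl and 25.5 ± 6.69 (SD, n = 3) in Sox2 cKO, a ratio of 3.62. Among the 7 counted host genes Snhg20 also varied most within a group, since its highest Ctrl library exceeded its lowest by a factor of 2.35 and the factor was 1.70 in Sox2 cKO. The log2 fold change was 1.85 (SE 0.30), which stood at rank 39 from the highest of the 16137 genes tested. Leaving out a library gave values between 1.64, without Ctrl library 6, and 2.35, without Ctrl library 2.

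The promoter of Snhg20 is shown because Snhg20 had the widest difference between the groups among the 7 counted host genes. The sequence covers 250 bases before and 50 bases from the RefSeq start site, in build GRCm38.p6. The capitals mark CCGGAAG, the letters bound by ETS factors, found by a search of both strands.
Snhg20 promoter, chr11:117076533-117076832, plus strand: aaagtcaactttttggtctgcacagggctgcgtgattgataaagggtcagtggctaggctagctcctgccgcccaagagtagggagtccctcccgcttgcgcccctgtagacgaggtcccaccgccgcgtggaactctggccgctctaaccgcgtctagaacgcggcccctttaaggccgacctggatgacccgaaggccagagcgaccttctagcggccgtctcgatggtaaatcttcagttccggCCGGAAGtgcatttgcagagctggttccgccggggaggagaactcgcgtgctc

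The motif CCGGAAG began 3 bases before the start site on the strand of the gene, and was present in 8.86% of 32851 RefSeq mouse promoters of the same length. The other motifs searched on both strands, the SOX core ACAAAG, the E-box CACGTG and the TATA box sequence TATAAA, were not found in this window and were present in 18.7%, 7.15% and 13.6% of all promoters. The GC content of the window was 61.0%. The annotated GENCODE gene begins upstream of this window, so the window describes the RefSeq start site only.

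A single small RNA of the snoRNA and scaRNA classes lies in an intron of Snhg20, the scaRNA gene Gm26083 of 193 bases. It is shown as the RNA that Snhg20 hosts, from the GENCODE M21 transcript sequences. Capitals mark a candidate H box (the letters ANANNA nearest the middle) and the ACA that stands 3 bases before the end.
Gm26083 in Snhg20, chr11:117077243-117077435, plus strand: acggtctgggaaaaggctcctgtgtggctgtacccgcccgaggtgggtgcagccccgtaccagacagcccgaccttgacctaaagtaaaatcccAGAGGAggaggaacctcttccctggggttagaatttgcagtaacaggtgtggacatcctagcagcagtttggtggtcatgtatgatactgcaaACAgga

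An annotated microRNA gene, Mir6516, overlaps the latter part of the scaRNA and runs past its end. Neither had an entry in the tables, so the level of the hosted RNA was not measured. The same held for all 239 snoRNA and scaRNA genes annotated within the 10 host genes, 0 of which had an entry. Over the whole annotation, 1 of 1507 snoRNA genes had an entry, Snora43. The length behind its FPKM was 2366 bases where the gene spans 139, and the gene lies within RefSeq Snhg7, so its counts were not read as those of a snoRNA.

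Of the other 9 genes, 6 had counts and all 6 passed the filter on low counts. In edgeR's test 3 of these 6, Snhg11, Snhg12 and Gas5, were called higher at an adjusted p below 0.05, where 12.2% of all genes tested were called higher and 24.6% in either direction. The CPM of all Sox2 cKO libraries was above that of all Ctrl libraries for 5 of the 6 genes, against 22.6% of all genes tested. The median log2 fold change of the 6 genes was 0.47, and that of all genes tested was 0.02. The genes are described below by the class of snoRNA they host.

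**Figure D1:**
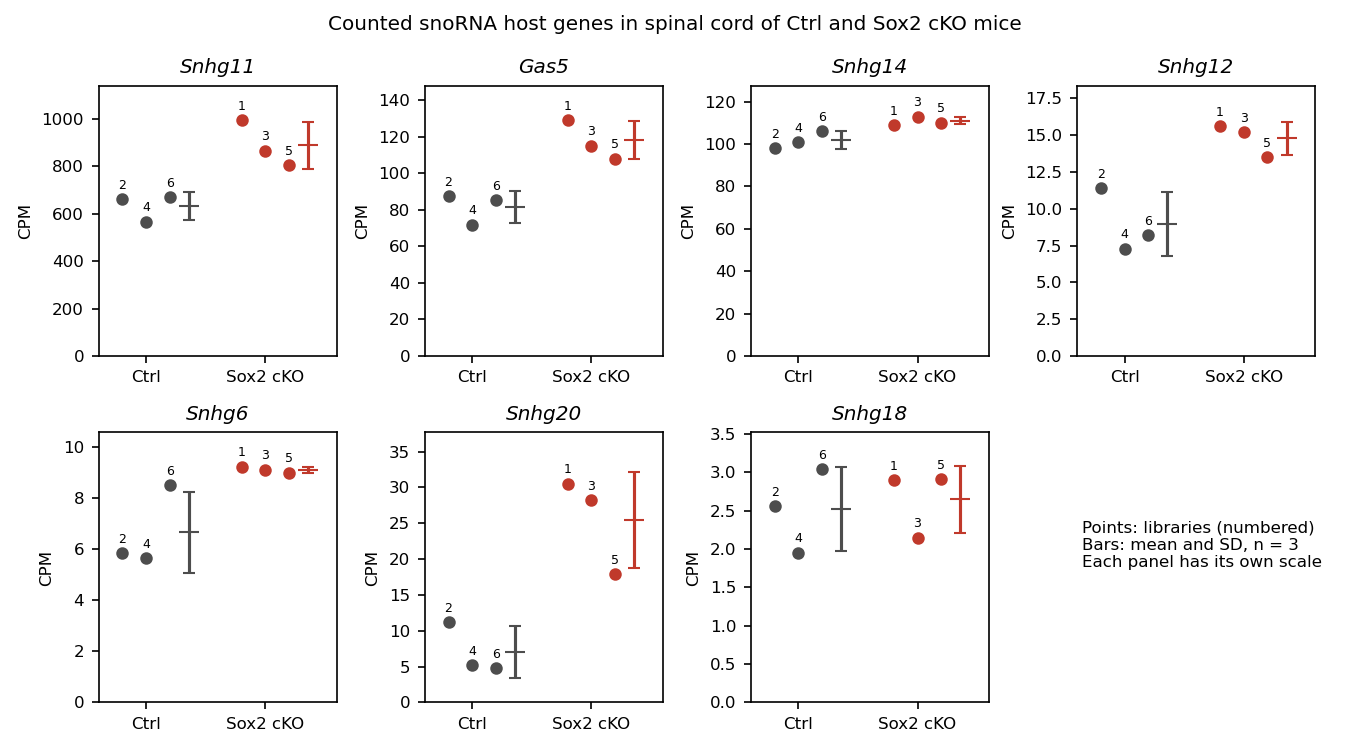
CPM of the 7 counted host genes in each library, with library numbers at the points and the mean and SD of 3 libraries per group beside them; each panel has its own vertical axis, which starts at 0. Snhg20 reaches 11.2 CPM at most in Ctrl and 17.9 CPM at least in Sox2 cKO, and only Snhg18 overlaps between the groups.

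Gas5, Snhg6 and Snhg18 host box C/D snoRNAs. Gas5, named for its accumulation in growth-arrested cells, holds 10 annotated snoRNA genes at 9 places, whereas Snhg6 and Snhg18 hold 1 each, Snord87 and Snord123. Snhg12 hosts both classes, with 5 annotated genes at 4 places. The examples below are shown to identify the RNAs these hosts carry. Capitals mark a C box (ATGATGA or GTGATGA, starting within the first 20 bases) with a D box (CTGA within the last 19 bases), or the H box and ACA as above.
Snord47 in Gas5, chr1:161038082-161038158, plus strand: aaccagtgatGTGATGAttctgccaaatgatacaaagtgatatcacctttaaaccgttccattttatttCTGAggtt
Snord87 in Snhg6, chr1:9942463-9942549, minus strand: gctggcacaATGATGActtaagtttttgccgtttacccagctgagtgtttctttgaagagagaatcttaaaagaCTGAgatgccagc
Snord123 in Snhg18, chr15:32241853-32241923, minus strand: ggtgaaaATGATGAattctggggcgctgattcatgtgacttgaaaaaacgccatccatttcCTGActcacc
Snord99 in Snhg12, chr4:132310691-132310764, plus strand: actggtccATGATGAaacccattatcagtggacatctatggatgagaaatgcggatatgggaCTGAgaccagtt
Snora61 in Snhg12, chr4:132310240-132310369, plus strand: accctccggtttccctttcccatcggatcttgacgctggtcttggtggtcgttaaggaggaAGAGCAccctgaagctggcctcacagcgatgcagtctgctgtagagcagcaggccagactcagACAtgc

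By this pattern C and D boxes were found in 307 of all 1558 annotated snoRNA and scaRNA genes (19.7%), and H and ACA boxes in 258 (16.6%). Among the genes within Gas5, 8 of 10 had C and D boxes. The pattern is strict, and its absence from the remaining genes says only that these letters were not found at these places.

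Gas5 (ENSMUSG00000053332, chromosome 1 from 161034422 to 161038539) had 87.5, 71.8 and 85.3 CPM in Ctrl libraries 2, 4 and 6. In Sox2 cKO libraries 1, 3 and 5 it had 129, 115 and 108 CPM. The groups did not overlap, with library 4 lowest in Ctrl and library 1 highest in Sox2 cKO. Gas5 rose by a log2 fold change of 0.53 (SE 0.10, edgeR adjusted p = 0.013). Without Ctrl library 4 and without Sox2 cKO library 1 the adjusted p from edgeR was 0.065 and 0.066. When the trend of each library with gene length was taken out, a setting called the length correction here, Gas5 had 0.43 and an edgeR adjusted p of 0.019.

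Snhg12 (ENSMUSG00000086290, chromosome 4 from 132308623 to 132311024) had 11.4, 7.28 and 8.21 CPM in Ctrl libraries 2, 4 and 6 against 15.6, 15.2 and 13.5 CPM in Sox2 cKO libraries 1, 3 and 5. Ctrl library 2 was the closest of the Ctrl libraries to the Sox2 cKO group, which it did not reach. Its log2 fold change was 0.72 (SE 0.17, edgeR adjusted p = 0.017). The length correction ended this call, with 0.37 and an adjusted p of 0.087. The call was also lost without Ctrl library 4 or 6 (adjusted p of 0.075 and 0.055) and without Sox2 cKO library 1 or 3 (0.076 and 0.057).

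Snhg6 (ENSMUSG00000098234, chromosome 1 from 9941959 to 9944118) had 5.83, 5.65 and 8.50 CPM in Ctrl libraries 2, 4 and 6. In Sox2 cKO libraries 1, 3 and 5 it had 9.22, 9.11 and 8.99 CPM. Ctrl library 6 was close to the Sox2 cKO libraries, which differed little from each other. Snhg6 did not pass the test, with a log2 fold change of 0.45 (SE 0.17, edgeR adjusted p = 0.073). Without Ctrl library 6 the value was 0.67 with an adjusted p of 0.04, and with the length correction it was 0.08 with an adjusted p of 0.79. Of its exonic bases, 127 (11.1%) are shared with Mcmdc2 on the opposite strand, and whether strand was used in counting is not stated, so its counts are uncertain to that extent.

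Snhg18 (ENSMUSG00000096956, chromosome 15 from 32240565 to 32244662) was the least abundant counted gene, with 47 to 63 counts in Ctrl and 63 to 77 in Sox2 cKO. It had 2.56, 1.95 and 3.04 CPM in Ctrl libraries 2, 4 and 6 against 2.90, 2.15 and 2.91 CPM in Sox2 cKO libraries 1, 3 and 5. The groups overlapped throughout. The log2 fold change of 0.08 (SE 0.23, edgeR adjusted p = 0.83) changed sign with the length correction, to -0.18, and without Ctrl library 4, to -0.08. Snhg18 did not pass the test.

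Snhg14 (ENSMUSG00000100826) is a host of another scale, a transcription unit of the imprinted Prader-Willi region that runs for 667836 bases on the minus strand of chromosome 7, from 59307924 to 59975759. It spans 208 annotated snoRNA genes with 85 distinct sequences, and 189 of the genes have C and D boxes. Of the 208, 82 lie in an intron of an annotated transcript and 126 between annotated transcripts, outside all exons. The most frequent sequence, present in 33 copies, is shown as the most repeated single sequence of the gene. C and D boxes are in capitals as above.
Gm24866 in Snhg14, chr7:59393561-59393639, minus strand: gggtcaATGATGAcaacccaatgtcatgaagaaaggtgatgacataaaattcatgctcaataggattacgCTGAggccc

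Snhg14 had 98.1, 101 and 106 CPM in Ctrl libraries 2, 4 and 6 against 109, 113 and 110 CPM in Sox2 cKO libraries 1, 3 and 5. The libraries of each group lay close together, and the Sox2 cKO group was slightly above the Ctrl group without overlap. The log2 fold change was 0.12 (SE 0.07), which did not pass edgeR's test (adjusted p = 0.24). With the length correction it was 0.38 and passed (adjusted p = 0.018), as it did in limma's test on log2(FPKM + 1), with 0.21 and an adjusted p of 0.048. With a correction for GC content in its place the value was 0.06 and the edgeR adjusted p was 0.61. Of its exonic bases, 1830 (7.01%) are shared with other genes on either strand, so its counts are uncertain to that extent.

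Snhg11 (ENSMUSG00000044349, chromosome 2 from 158375638 to 158386145), known as a neuron-enriched RNA, is typed as protein-coding in GENCODE M21. It hosts 2 annotated snoRNA genes, and neither matched the box patterns. Snhg11 had 662, 566 and 670 CPM in Ctrl libraries 2, 4 and 6 against 996, 866 and 804 CPM in Sox2 cKO libraries 1, 3 and 5. The groups did not overlap, with library 4 lowest in Ctrl and library 1 highest in Sox2 cKO. The gene rose by a log2 fold change of 0.49 (SE 0.11, edgeR adjusted p = 0.015), and by 0.70 with the length correction (adjusted p = 0.018). The adjusted p from edgeR was 0.075 without Ctrl library 4 and 0.069 without Sox2 cKO library 1.

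Snhg3 (ENSMUSG00000085241, chromosome 4 from 132348014 to 132353686) hosts the box H/ACA RNAs Snora73a and Snora73b. It was listed with 0 counts in all 6 libraries. A count of 0 allows up to 3 counts, or between 0.106 and 0.139 CPM by the totals of the libraries, for counting error only. Of its exonic bases, 83.3% are shared with exons of other genes on either strand, among them Rcc1 and Gm17300, and 13.7% with genes on its own strand. Reads in shared bases may be left out of the counts, and the part of this in the count of 0 was not tested. Rcc1 did not pass edgeR's test (log2 fold change 0.20, adjusted p = 0.23). The expression of Snhg1, with 8 annotated snoRNA genes, and of Snhg8, which holds Snora24, was not analysed here for lack of an entry.

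Leaving out either of a pair of libraries ended every call among the host genes. Without Ctrl library 4 or without Sox2 cKO library 1, edgeR called 0 of the 6 genes, although 3 of them had an unadjusted p below 0.05 in each of these fits. Over all genes tested it then called 26 and 8 genes, in place of 3970, although 4758 and 4945 had an unadjusted p below 0.05. It called 6119 genes without Ctrl library 2, 1082 without Ctrl library 6 and 1359 without Sox2 cKO library 3. Run on all libraries, DESeq2 called the same number as edgeR, 3 of the 6, where it called 8.15% of all genes higher. Limma on log2(FPKM + 1) called 5, where it called 18.1% of all genes higher.

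Levels were compared between genes as FPKM, which scales counts to gene length as well as to library size. Ordered by mean FPKM over the 6 libraries, the genes were Snhg11 (131), Gas5 (39.2), Snhg14 (15.5), Snhg12 (12.9), Snhg6 (9.70), Snhg20 (7.76) and Snhg18 (1.74). In Ctrl, the ranges of Snhg12 (7.50 to 12.2 FPKM) and Snhg6 (6.66 to 9.81 FPKM) overlapped, and the other neighbours in this order did not. Snhg20 was between 2.09 and 5.17 FPKM in Ctrl, below Snhg6 in every library. In Sox2 cKO it was between 8.43 and 15.0 FPKM, a range that held all 3 values of Snhg6 and met that of Snhg12 (14.6 to 17.7 FPKM). Snhg12 in turn was not separated from Snhg14 (16.2 to 16.9 FPKM) in this group. Summed over the 6 genes without Snhg20, the level was 867, 754 and 881 CPM in Ctrl libraries 2, 4 and 6 against 1262, 1120 and 1047 CPM in Sox2 cKO libraries 1, 3 and 5, of which Snhg11 made up the larger share.

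Start sites were compared because many snoRNA hosts belong to the class of genes that begin with a pyrimidine run. RefSeq gave a start site for 9 of the 10 genes, with 2 for Gas5. The windows hold 20 bases before and 30 bases from the start site, in build GRCm38.p6. Capitals mark an unbroken run of at least 5 pyrimidines that starts with C within 10 bases of the start site on the strand of the gene.
Snhg1, chr19:8723467-8723516, plus strand: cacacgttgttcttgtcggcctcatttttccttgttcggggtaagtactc
Snhg3, chr4:132353657-132353706, minus strand: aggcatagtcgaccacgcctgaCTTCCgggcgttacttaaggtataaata
Snhg8, chr3:123508307-123508356, minus strand: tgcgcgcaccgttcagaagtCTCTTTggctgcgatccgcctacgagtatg
Snhg11, chr2:158375693-158375742, plus strand: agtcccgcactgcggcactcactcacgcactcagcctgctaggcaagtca
Snhg12, chr4:132308658-132308707, plus strand: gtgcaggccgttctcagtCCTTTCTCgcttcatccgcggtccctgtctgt
Snhg14, chr7:60450148-60450197, minus strand: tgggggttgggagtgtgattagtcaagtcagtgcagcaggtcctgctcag
Snhg18, chr15:32244633-32244682, minus strand: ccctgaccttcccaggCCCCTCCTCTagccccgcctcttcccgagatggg
Snhg20, chr11:117076763-117076812, plus strand: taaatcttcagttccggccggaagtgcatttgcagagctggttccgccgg
Gas5 start 1, chr1:161034581-161034630, plus strand: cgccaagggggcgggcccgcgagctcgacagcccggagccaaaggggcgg
Gas5 start 2, chr1:161035146-161035195, plus strand: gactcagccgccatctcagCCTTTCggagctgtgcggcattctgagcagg

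Such a run was present at 5 of the 9 genes, Snhg3, Snhg8, Snhg12, Snhg18 and, at its second start, Gas5, and at 30.7% of 32851 RefSeq promoters. Of the genes called higher, Gas5 and Snhg12 had a run and Snhg11 did not. Neither Snhg20 nor Snhg14 had a run. The RefSeq start of Snhg14 lies outside the bounds of the GENCODE gene, and the run of Snhg3 is part of a CCGGAAG on the opposite strand. Among the other motifs, CCGGAAG was found in the 300-base promoters of 2 of the 9 genes (Snhg3 and Snhg20), ACAAAG in 1 (Snhg3), TATAAA in 3 (Snhg1, Snhg3 and Snhg8) and CACGTG in 0. The letters found are a description, and binding was not measured at these sites.

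Other noncoding snoRNA hosts were drawn from a list of 13 genes, of which 8 had an entry and 7 passed the filter on low counts. Like the members and the other lists, it was chosen with earlier results of these data known. In edgeR's test 5 of the 7 rose, namely Snhg5, Snhg15, Zfas1, Epb41l4aos and Rian, where 12.2% of all genes tested were called higher. In all 7 the Sox2 cKO libraries were above all Ctrl libraries, against 22.6% of all genes tested. The median log2 fold change of these 7 genes was 0.95. Snhg9 was near the floor, with 0, 0 and 1 counts in Ctrl libraries 2, 4 and 6 and 7, 4 and 5 counts in Sox2 cKO libraries 1, 3 and 5, and was not tested.

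Zfas1, a host of box C/D snoRNAs transcribed antisense to Znfx1, had 11.3, 7.44 and 8.40 CPM in Ctrl libraries 2, 4 and 6 against 18.8, 18.6 and 15.0 CPM in Sox2 cKO libraries 1, 3 and 5. Its log2 fold change was 0.95 (SE 0.16, edgeR adjusted p = 0.012). Rian, an imprinted host of many box C/D snoRNAs in the Dlk1-Dio3 region, had 403, 255 and 249 CPM in Ctrl and 643, 594 and 497 CPM in Sox2 cKO, in the same order of libraries. Both genes had Ctrl library 2 highest within Ctrl and library 5 lowest within Sox2 cKO, as did Snhg20, Gas5, Snhg12, Snhg5 and Snhg16. Rian had a log2 fold change of 0.93 (SE 0.18, edgeR adjusted p = 0.013), and 1.23 with the length correction. Snhg5, a host of box C/D snoRNAs, rose by 0.97 (edgeR adjusted p = 0.013) from a mean of 4.62 ± 1.01 CPM (SD, n = 3) to 9.09 ± 1.42 CPM (SD, n = 3). Snhg15 had 1.23 (edgeR adjusted p = 0.019) at a mean of 0.960 ± 0.180 CPM (SD, n = 3) in Ctrl and 2.26 ± 0.685 CPM (SD, n = 3) in Sox2 cKO. Snhg16 and Snhg17 did not pass the test, with 1.23 (SE 0.47, edgeR adjusted p = 0.077) and 0.43 (SE 0.18, edgeR adjusted p = 0.096). Without Ctrl library 2, Snhg16 had 2.17 and was called (edgeR adjusted p = 0.0021), and over the other libraries left out it was lowest without Ctrl library 6, at 0.86. Snhg17 was lowest without Sox2 cKO library 1, at 0.26 (edgeR adjusted p = 0.32).

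With the length correction, 3 of the 7 genes were called higher (Snhg5, Zfas1 and Rian), where 6.08% of all genes tested were. It ended the calls of Snhg15 (0.83, adjusted p = 0.082 from edgeR) and Epb41l4aos (0.36, adjusted p = 0.16). The same correction called 3 of the 6 genes of the first list, Gas5, Snhg11 and Snhg14. Without Ctrl library 4 or without Sox2 cKO library 1, edgeR called 0 of the 7, and 5 of them had an unadjusted p below 0.05 in each of these fits. Epb41l4aos was not called without Ctrl library 6 (edgeR adjusted p = 0.06), nor Snhg15 without Sox2 cKO library 3 (0.055). On all libraries DESeq2 called 5 of the list higher and limma on log2(FPKM + 1) called 6, where they called 8.15% and 18.1% of all genes higher. These fits tested 8 genes of the list, Snhg9 included.

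**Figure D2:**
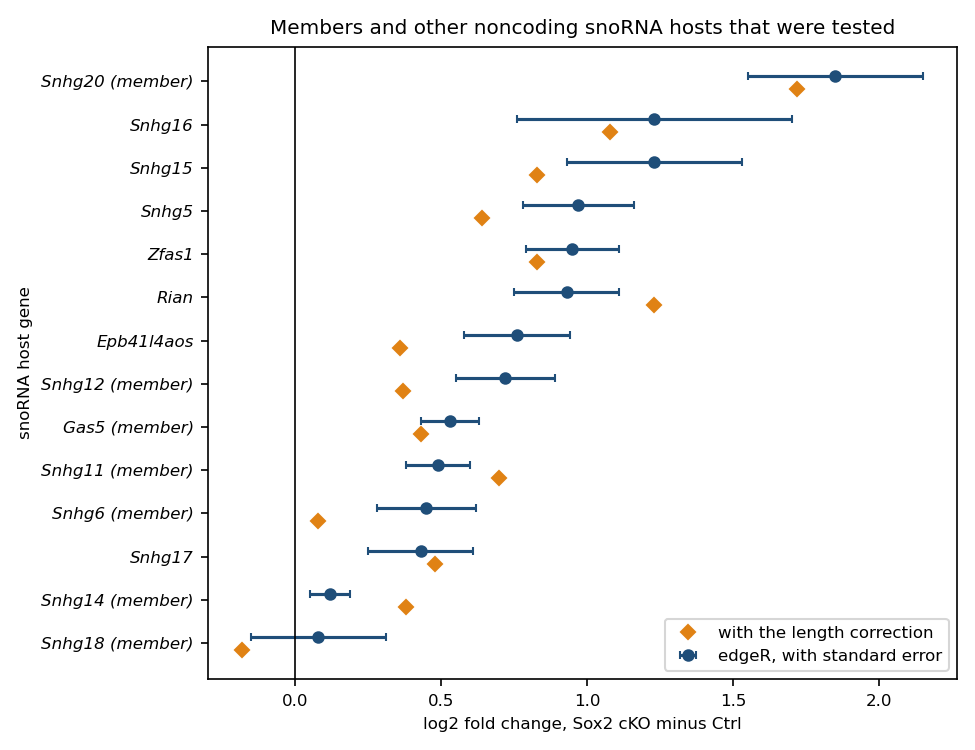
Log2 fold change of Sox2 cKO over Ctrl for the 14 host genes tested, the counted members and the other noncoding hosts; circles with bars are the edgeR estimate and its standard error, and diamonds the estimate with the length correction. Snhg20 has the highest estimate of the 14 on both (1.85 and 1.72) and was chosen for it, and Snhg18 is the only gene whose sign differs between them (0.08 and -0.18).

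Gene length was examined because the fold changes of all genes moved with it. For each library, log2 CPM was centred on each gene's mean, the genes were sorted by length and parted evenly into 5 length groups, and the median of the longest group was subtracted from that of the shortest. This difference was -0.05, -0.41 and -0.36 in Ctrl libraries 2, 4 and 6 against 0.45, 0.20 and 0.21 in Sox2 cKO libraries 1, 3 and 5. Short genes were thus higher against long genes in every Sox2 cKO library than in any Ctrl library, and library 2 stood apart within Ctrl. Of the 3227 genes in the shortest group (66 to 1707 bases), 982 were called higher and 56 lower, and the median log2 fold change was 0.30. In the next group (1708 to 2614 bases), 496 of 3227 were called higher and 107 lower, with a median of 0.15. The longest group (4869 to 106824 bases) held 3228 genes, 56 of them called higher and 1161 called lower, with a median of -0.25. The shares of all genes tested that stand beside the counts of hosts were not matched for length.

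The hosts were not all short. Snhg6, Snhg12, Snhg18, Snhg5, Snhg15 and Epb41l4aos were in the shortest group, Snhg20, Gas5, Snhg16 and Zfas1 in the next, Snhg17 in the group before the longest, and Snhg11, Snhg14 and Rian in the longest. The log2 fold change of Snhg20 was 1.85, and 1.72 with the length correction. Ctrl library 2 was the highest Ctrl library for 8 of the 14 hosts tested, and library 1 the highest Sox2 cKO library for 12 of the 14. The part of whatever set this length trend in the differences of the hosts was not tested beyond that correction.

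**Figure D3:**
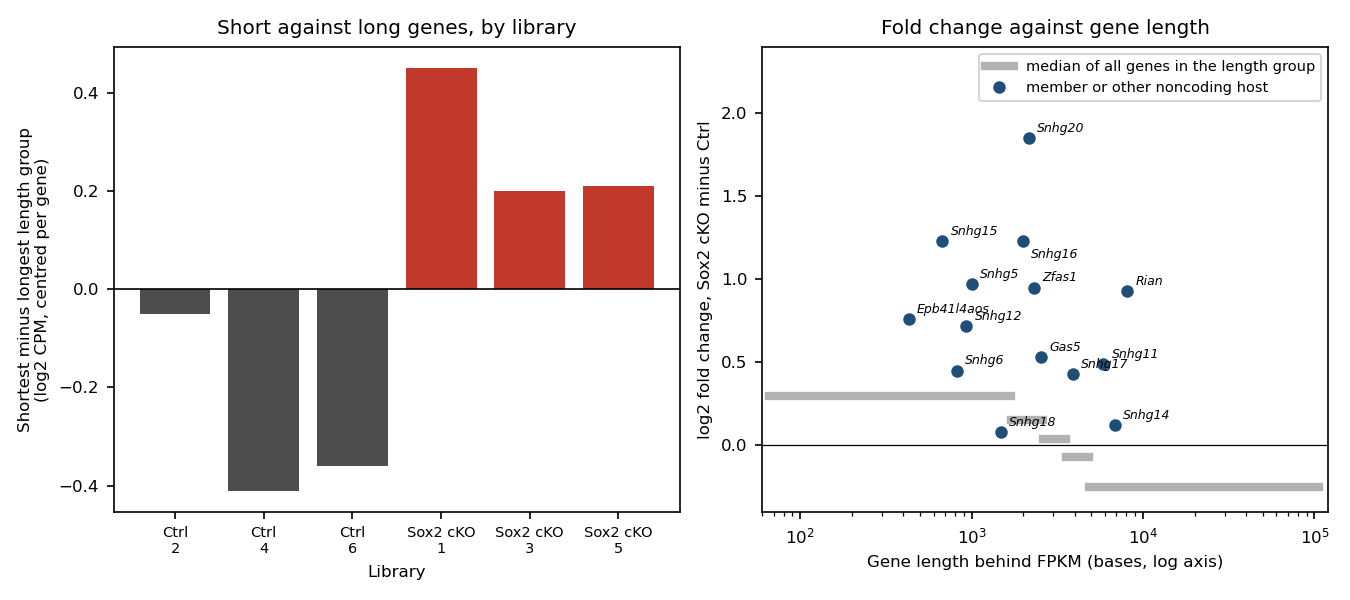
Left, median log2 CPM of the shortest of 5 length groups minus that of the longest in each library, after centring each gene; right, log2 fold change of 14 host genes against gene length on a log axis, with the median of all genes in each length group as grey bars. The left values run from -0.41 to -0.05 in Ctrl and from 0.20 to 0.45 in Sox2 cKO, and on the right only Snhg18, at 0.08, lies below the bar of its group, at 0.30.

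Protein-coding snoRNA hosts were read from a list of 12 genes, all of which were tested. In edgeR's test 2 rose, Taf1d and Nop56, and 2 fell, Eef2 and Ncl, where 12.2% of all genes tested were called higher and 24.6% in either direction. The median log2 fold change was 0.10. Nop56, Ncl and Rack1 were named after their values were seen. Taf1d, a subunit of the RNA polymerase I selectivity factor, had 9.47, 6.32 and 5.60 CPM in Ctrl libraries 2, 4 and 6 against 11.9, 11.6 and 9.22 CPM in Sox2 cKO libraries 1, 3 and 5. The groups overlapped at Ctrl library 2 and Sox2 cKO library 5, and the log2 fold change was 0.61 (SE 0.20, edgeR adjusted p = 0.047). Eef2, the translation elongation factor, had 1445, 1857 and 1909 CPM in Ctrl and 1192, 1162 and 1322 CPM in Sox2 cKO, in the same order, a log2 fold change of -0.50 (edgeR adjusted p = 0.017). The abundant hosts Hspa8, Atp5b, Tpt1 and Eif4a2 had log2 fold changes between -0.07 and 0.14, with adjusted p from 0.23 to 0.82. The length correction ended the calls of Taf1d (edgeR adjusted p = 0.18) and Ncl (0.4), and called Tpt1 lower (-0.39, adjusted p = 0.048) and Rack1 higher (0.36, adjusted p = 0.028). EdgeR called 0 of the 12 without Ctrl library 4, Ctrl library 6, Sox2 cKO library 1 or Sox2 cKO library 3, while 4, 6, 6 and 6 of them had an unadjusted p below 0.05. By DESeq2 on all libraries, 4 were higher and 2 lower, where it called 1991 and 2345 of 24442 genes.

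Over the whole annotation, 291 genes hold a snoRNA or scaRNA gene on their own strand outside all of their exons, and 223 of them were tested. Of these, 18 were called higher and 47 lower by edgeR, where 12.2% of all genes tested were called higher and 24.6% in either direction, and the median log2 fold change was -0.08. Limma on log2(FPKM + 1) called 32 higher and 21 lower, where it called 2670 and 915 of all genes, and the length correction gave 15 and 23, where it gave 981 and 1128 of all genes. Gm45713 had the largest log2 fold change of the list, 1.77 (SE 0.53, edgeR adjusted p = 0.037), at levels of 0.145 to 0.987 CPM in Ctrl and 1.16 to 2.28 CPM in Sox2 cKO. It had only 22, 7 and 3 counts in Ctrl libraries 2, 4 and 6, against 52, 34 and 40 in Sox2 cKO libraries 1, 3 and 5. With a filter of at least 10 counts in every library Gm45713 was therefore not tested. Its call was lost with the length correction, at a value of 1.67 (adjusted p = 0.06), and without any of libraries 4 and 6 of Ctrl and 1, 3 and 5 of Sox2 cKO (0.14, 0.1, 0.15, 0.062 and 0.064). The value ran from 1.37 without Ctrl library 6 to 2.85 without Ctrl library 2. Tmf1, a Golgi protein gene, fell most. It had 52.4, 86.9 and 88.3 CPM in Ctrl libraries 2, 4 and 6 against 33.7, 40.4 and 43.9 CPM in Sox2 cKO libraries 1, 3 and 5, a log2 fold change of -0.95 (SE 0.18, edgeR adjusted p = 0.013). Protein-coding genes made up 212 of the 223, with 15 called higher and 47 lower. The remaining 11 genes had 3 called higher and none called lower. EdgeR called 33 genes of the list higher and 71 lower without Ctrl library 2, and 6 and 12 without Ctrl library 6. Of all genes these fits called 3030 higher and 3089 lower of 16590, and 602 and 480 of 16552. On the list edgeR called 6 and 16 without Sox2 cKO library 3, and 13 and 31 without Sox2 cKO library 5. Of all genes the latter fits called 698 and 661 of 16345, and 1329 and 1336 of 16339. Without Ctrl library 4 or Sox2 cKO library 1 edgeR called 0 of the list, and 76 and 78 genes had an unadjusted p below 0.05. By DESeq2 on all libraries, 20 were higher and 55 lower, where it called 1991 and 2345 of 24442 genes.

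That definition leaves out hosts such as Gas5, Snhg12 and Snhg20, because some of their annotated transcripts retain the intron. A definition by an intron of at least 1 transcript, chosen after the data were seen and applied without Snhg20, gave 272 tested genes with 33 called higher and 50 lower, beside the same shares of all genes tested. Limma on log2(FPKM + 1) called 53 higher and 22 lower, and the length correction gave 23 and 23. With upper quartile scaling edgeR called 41 and 41, where it called 2313 higher and 1652 lower of all genes. Among its 23 genes of noncoding types, 11 were called higher and the median log2 fold change was 0.66, against -0.06 for its 249 protein-coding genes. With the length correction 8 of the 23 were called higher and 1 lower, with a median of 0.38. Of the 11 noncoding hosts on neither list, 4 were called higher, Rab26os, 1110038B12Rik, 2410006H16Rik and 2900076A07Rik, all named after their values were seen. The length correction ended the call of 2900076A07Rik, which went from 0.66 to 0.31 (edgeR adjusted p = 0.22), and did not end the others. Rab26os had 1.03, 0.291 and 0.579 CPM in Ctrl libraries 2, 4 and 6 against 2.59, 3.51 and 2.61 CPM in Sox2 cKO libraries 1, 3 and 5. In all 3 Sox2 cKO libraries Rab26os was above all 3 Ctrl libraries, at low levels, with 23, 7 and 12 counts in Ctrl. Its log2 fold change was 2.20 (SE 0.37, edgeR adjusted p = 0.012), and 1.82 with the length correction. Both values were above those of Snhg20, 1.85 and 1.72, so Snhg20 was not the noncoding host with the largest rise. Under this definition edgeR called 54 genes higher and 77 lower without Ctrl library 2, and 15 and 12 without Ctrl library 6. It called 12 and 17 without Sox2 cKO library 3, and 25 and 32 without Sox2 cKO library 5. The counts over all genes in these fits are those given for the first definition, 3030 and 3089, 602 and 480, 698 and 661, and 1329 and 1336. Without Ctrl library 4 or Sox2 cKO library 1 edgeR called 0 under this definition, and 95 and 101 genes had an unadjusted p below 0.05. From DESeq2 there were 39 higher and 59 lower with all libraries, where it called 1991 and 2345 of 24442 genes.

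The proteins that bind snoRNAs in ribonucleoprotein particles (snoRNPs) and assemble them were read from 17 genes, all tested. In edgeR's test 5 rose, namely Nop56 of the box C/D core, Nhp2 and Nop10 of the box H/ACA core, and the assembly factors Znhit3 and Ruvbl2, where 12.2% of all genes tested were called higher. Nhp2, Znhit3, Ruvbl2 and Nop58 were named after their values were seen. Nop10 had 25.3, 17.4 and 14.5 CPM in Ctrl libraries 2, 4 and 6 against 48.0, 45.3 and 44.9 CPM in Sox2 cKO libraries 1, 3 and 5. The groups were far apart, with little spread in Sox2 cKO, and the log2 fold change was 1.27 (SE 0.17, edgeR adjusted p = 0.01), or 0.96 with the length correction (adjusted p = 0.014). Nop56, also a snoRNA host, rose by 0.39 (SE 0.09, edgeR adjusted p = 0.019). Znhit6 had the lowest value, -0.29 (adjusted p = 0.072), and Snu13, Nolc1 and Ruvbl1 had 0.26, -0.04 and 0.23 without passing the test. The length correction kept Nop10 and Nop56, added Nop58 and ended the other 3 calls. Over the 17 genes the median log2 fold change was 0.11, and edgeR called 0 of them without Ctrl library 4 or Sox2 cKO library 1, where 6 and 5 had an unadjusted p below 0.05, 2 without Ctrl library 6 and 1 without Sox2 cKO library 3. DESeq2 with all libraries called 5.

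Factors of NMD and of the exon junction complex, which mark and degrade spliced host RNA, were read from 15 genes, all tested. In edgeR's test the exon junction genes Magoh and Magohb rose, and the NMD genes Upf1, Upf2 and Smg6 fell, where 24.6% of all genes tested were called in either direction. Magohb, Upf1, Smg6 and Upf3a were named after their values were seen. Magoh had 12.7, 9.19 and 7.14 CPM in Ctrl libraries 2, 4 and 6 against 19.2, 17.2 and 15.1 CPM in Sox2 cKO libraries 1, 3 and 5, with a log2 fold change of 0.82 (SE 0.19, edgeR adjusted p = 0.017). Upf2 had 110, 144 and 158 CPM in Ctrl and 84.4, 94.7 and 104 CPM in Sox2 cKO, in the same order, with -0.54 (SE 0.13, edgeR adjusted p = 0.019). Neither gene overlapped between the groups. With the length correction Magoh had 0.44 (adjusted p = 0.094) and Upf2 -0.39 (adjusted p = 0.042). It also ended the calls of Magohb and Smg6 (both at an adjusted p of 0.17) and called Upf3a lower (-0.36, adjusted p = 0.02). The median over the 15 genes was 0.02, that of all genes tested. The count of 5 calls fell to 0 without Ctrl library 4, Sox2 cKO library 1 or Sox2 cKO library 3, where edgeR had 5, 5 and 6 genes with an unadjusted p below 0.05, and to 1 without Ctrl library 6. DESeq2 with all libraries called 2 higher and 3 lower, where it called 1991 and 2345 of 24442 genes.

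**Figure D4:**
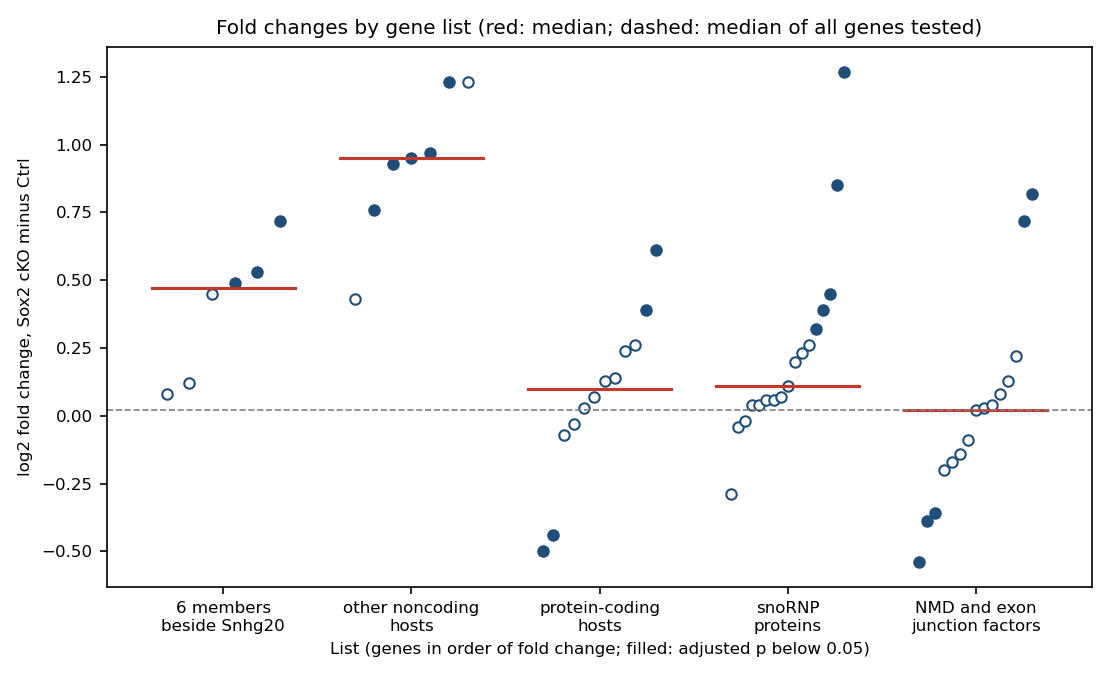
Log2 fold change of Sox2 cKO over Ctrl for the tested genes of each list, in order within the list; filled circles passed edgeR's test at an adjusted p below 0.05, red lines are list medians and the dashed line the median of all 16137 genes tested. Medians are 0.47 for the 6 genes beside Snhg20, 0.95 for the other noncoding hosts, 0.10 for protein-coding hosts, 0.11 for snoRNP proteins and 0.02 for NMD and exon junction factors.

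The genes whose pattern over the 6 libraries was most like that of Snhg20 were found among 14542 genes with a mean of at least 1 CPM, by the root mean square difference of centred log2 CPM. They were Pf4, Gm27032, Clec2d, Gm3788 and Ifi204, with differences of 0.23, 0.25, 0.25, 0.27 and 0.27. Gm27032 had 3.27, 2.20 and 1.40 CPM in Ctrl libraries 2, 4 and 6 against 8.48, 6.89 and 5.78 CPM in Sox2 cKO libraries 1, 3 and 5. Clec2d, a C-type lectin gene, was between 1.45 and 2.78 CPM in Ctrl and from 7.37 to 12.6 CPM in Sox2 cKO. In each of the genes most like Snhg20, as in Snhg20 itself, library 2 stood above libraries 4 and 6 of Ctrl. They were picked for a pattern like that of Snhg20, so this likeness follows from the choice. Pf4 had only 29, 10 and 8 counts in Ctrl libraries 2, 4 and 6, and Ifi204 had 20, 6 and 5. Closest of the hosts tested from the list of members and that of other noncoding hosts was Snhg16, at rank 29 with a difference of 0.38, followed by Rian at rank 121 (0.52), Snhg5 at rank 135 (0.53) and Zfas1 at rank 152 (0.55). Of the counted members, Snhg12 was closest, at rank 401, and Gas5 was at rank 1322.

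**Figure D5:**
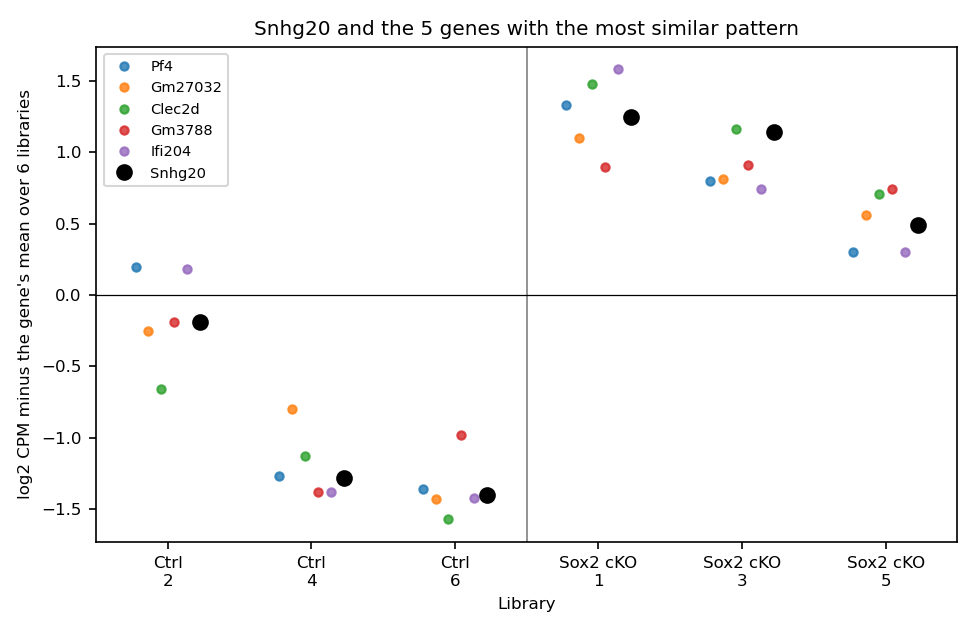
Log2 CPM of Snhg20 and of the 5 genes most like it in each library, after subtracting the gene's mean over the 6 libraries. Snhg20 runs from -1.40 in Ctrl library 6 to 1.25 in Sox2 cKO library 1, with Ctrl library 2 at -0.19.

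Neighbouring genes were read where they overlap a host gene or lie within 5000 bases. Of 19 such genes 12 had an entry and 11 were tested, and 3 of these passed edgeR's test, each lower in Sox2 cKO, where 24.6% of all genes tested passed in either direction. Ube3a, the ubiquitin ligase gene antisense to Snhg14, had 80.8, 99.8 and 87.1 CPM in Ctrl libraries 2, 4 and 6 against 55.1, 72.4 and 75.2 CPM in Sox2 cKO libraries 1, 3 and 5 (log2 fold change -0.40, SE 0.12, edgeR adjusted p = 0.039). It overlaps Snhg14 by 3613 bases that lie within its last exon, so the counts of both are uncertain, as the use of strand in counting is not stated. Sema5a, which starts 148 bases from the start of Snhg18 on the opposite strand, overlapped between the groups and had -0.46 (edgeR adjusted p = 0.046) but -0.06 with the length correction (adjusted p = 0.65). Zbtb37, which overlaps the start of Gas5 by 428 bases on the opposite strand, had -0.48 (edgeR adjusted p = 0.045). The length correction also ended the calls of Ube3a (-0.25, adjusted p = 0.11) and Zbtb37 (-0.42, adjusted p = 0.076), and it called Prss12, a protease gene beside Snhg8 named after its values were seen, lower (-0.44, adjusted p = 0.04). Slc3a2 and Trnau1ap, beside Snhg1 and Snhg12, had -0.03 and 0.40 without passing the test. All 3 calls of the fit without that correction were lost without Ctrl library 4, Ctrl library 6, Sox2 cKO library 1 or Sox2 cKO library 3, with adjusted p between 0.072 and 0.18 from edgeR, and those of Sema5a and Zbtb37 also without Sox2 cKO library 5 (0.061 and 0.062).

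Markers of cell types were summed in each library to describe the tissue beside the host genes. Of 7 astrocyte markers 5 fell in edgeR's test (Gfap, Aqp4, Aldh1l1, Slc1a2 and Slc1a3), where 24.6% of all genes tested were called in either direction, and the summed level of the 7 was 7383, 8020 and 9566 CPM in Ctrl libraries 2, 4 and 6 against 5372, 5289 and 5503 CPM in Sox2 cKO libraries 1, 3 and 5. Slc1a2 had the highest mean over the 6 libraries, 2100 CPM, whereas in Ctrl alone Gfap was higher, at 2841 against 2541 CPM for Slc1a2. Ctrl library 2 was the lowest Ctrl library for this sum and the highest for Snhg20. Of 3 tested oligodendrocyte precursor markers 2 fell (Pdgfra and Cspg4), and the sums were 118, 136 and 142 CPM in Ctrl and 99.0, 102 and 109 CPM in Sox2 cKO, with Pdgfra the most abundant. Without Sox2 cKO library 1 edgeR called 0 of the 7 astrocyte markers, 5 of which had an unadjusted p below 0.05, and it called 1 without Ctrl library 4 and 3 without Ctrl library 6. DESeq2 with all libraries called 5, and limma on log2(FPKM + 1) called 3, all lower. The length correction left 2 of the astrocyte calls and 0 of the precursor calls, with 7 astrocyte markers and 1 precursor marker at an unadjusted p below 0.05. With it Aldh1l1, Slc1a2 and Slc1a3 went from -0.37, -0.62 and -0.43 to -0.30, -0.21 and -0.33 (edgeR adjusted p of 0.051, 0.093 and 0.056). Of the precursor markers edgeR called 0 without Ctrl library 4 or Sox2 cKO library 1, where 2 had an unadjusted p below 0.05, and 1 without Ctrl library 6 or Sox2 cKO library 3. DESeq2 with all libraries called 2 precursor markers, and limma on log2(FPKM + 1) called 1, all lower.

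The 6 neuronal markers summed to 8957, 8395 and 8946 CPM in Ctrl and 8672, 8679 and 8862 CPM in Sox2 cKO, with Nefm the most abundant, and 1 of them (Stmn2, at 0.30 with an adjusted p of 0.038) rose in edgeR's test, where 12.2% of all genes were called higher. DESeq2 called 2 of the 6 higher and 1 lower, and limma on log2(FPKM + 1) called 2 higher, where they called 8.15% and 18.1% of all genes higher. Nefm was below all Ctrl libraries in all Sox2 cKO libraries, and Snap25, Stmn2 and Rbfox3 were above, so the sum joins genes that differ in opposite directions. The length correction ended the call of Stmn2 (0.13, adjusted p = 0.25) and called Snap25 higher (0.48, adjusted p = 0.04). The adjusted p of Stmn2 from edgeR was 0.15 and 0.12 without Ctrl libraries 4 and 6, and 0.086, 0.13 and 0.092 without Sox2 cKO libraries 1, 3 and 5. The 6 oligodendrocyte markers, led by Mbp, summed to 35053, 31292 and 34684 CPM in Ctrl and 34158, 31636 and 33336 CPM in Sox2 cKO. Microglial markers, led by Csf1r, summed to 173, 184 and 213 CPM in Ctrl and 183, 155 and 136 CPM in Sox2 cKO. The sums of neuronal, oligodendrocyte and microglial markers overlapped between the groups.

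Endothelial markers, led by Flt1, summed to 146, 168 and 183 CPM in Ctrl and 213, 145 and 157 CPM in Sox2 cKO. Red blood cell markers, led by Hbb-bs, summed to 57.1, 75.0 and 166 CPM in Ctrl and 82.4, 76.8 and 98.4 CPM in Sox2 cKO. Ctrl library 6 was the highest library for red blood cell markers. Of the oligodendrocyte, microglial, endothelial and red blood cell lists edgeR called 0 genes, with 1, 3, 1 and 0 genes at an unadjusted p below 0.05, while DESeq2 called 2, 2, 0 and 0, all lower. Limma on log2(FPKM + 1) called 1 microglial marker, higher, and 0 of the other 3 lists. With the length correction edgeR called the oligodendrocyte marker Cnp lower (-0.28, adjusted p = 0.029). No tested marker of the lists given was at 0 in all libraries, and the part of any of these markers in the differences of the host genes was not tested.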

How the data were processed

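RNA of the spinal cord of 3 Sox2 cKO and 3 Ctrl mice was sequenced by the authors as single-end libraries from a directional kit, aligned to mm10 with STAR 2.5 and counted per Ensembl gene with HTSeq 0.6.1. Use of strand in counting is not given in the sources used here. The deposited counts are whole reads per gene with no normalization. The deposited FPKM were made by the authors from counts, gene length and depth, and gave whole gene lengths within 0.01 bases for all 24442 genes with a count. No other column of per-sample values was present (0).

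Column names match no single sample title. Columns ending in 2, 4 and 6 were taken as Ctrl and those ending in 1, 3 and 5 as Sox2 cKO, an assumption from the numbers that a blot in the study gives its mice. All 1999 group means compared in the authors' table of differences matched the means of these columns to a relative tolerance of 1e-05, and 0 matched with the groups exchanged. The fold changes and p-values of that table were not used. The p-values measure the spread between single animals.

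Members were matched by Ensembl identifier through GENCODE M21, which held 34490 of the 35275 identifiers, and start sites and promoters come from RefSeq (GRCm38.p6). Counts were tested with edgeR 4.0.16 (TMM, filterByExpr, quasi-likelihood test, Benjamini-Hochberg adjustment at 0.05 over 16137 genes) in R 4.3.3. The biological coefficient of variation was 0.119. Each standard error given with an edgeR value, also in the figures, is approximate. It is the absolute log2 fold change divided by the square root of the F statistic of the quasi-likelihood test. Library totals ran from 21507911 to 28392184 counts. The length correction is an edgeR offset that removes the lowess trend (span 0.3) of each library's log ratio against log gene length.

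Alternatives were DESeq2 1.42.0, limma 3.58.1 on log2(FPKM + 1) and log2(FPKM + 0.1) (mean FPKM of 0.5 or more), upper quartile scaling, other filters on low counts, corrections for gene length and GC content, and leaving out each library. The fits were tested on simulated data. From each gene list the text names the members with the largest rise and fall and up to 4 more by mean CPM, all tested noncoding hosts, and the 5 genes most like Snhg20 (log2 CPM with a prior count of 2). Some of the genes and sequences analysed are not reported here. The members and lists were chosen with earlier results of these data known.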

Additional observations from a re-analysis of the deposited data

How the results depend on the processing

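Over 59 named genes that were tested and 818 alternative values, 607 kept their direction and side of the threshold, 177 kept their direction and were no longer called, 15 were newly called and 19 changed sign. The length correction gave log2 fold changes of -0.18 for Snhg18, -0.04 for Atp5b, -0.03 for Snu13, 0.27 for Smg1, -0.07 for Rbm8a and -0.02 for Nhp2. Of these only Nhp2 had been called. Upper quartile scaling gave 0.02 for Hspa8 and 0.00 for Nolc1. Limma gave 0.07 and 0.07 for Hspa8, 0.04 and 0.04 for Tpt1, and 0.05 and 0.06 for Nolc1, with pseudocounts of 1 and 0.1. Without a library, Snhg18 ranged from -0.08 (Ctrl library 4) to 0.23 and Tpt1 from -0.14 to 0.02 (Ctrl library 6), with 0.00 without Sox2 cKO library 3, and Rbm8a fell to -0.01 without Ctrl library 2. Over all genes the length correction called 2109. Of the 6 host genes beside Snhg20, limma called 5 higher with either pseudocount. The length correction called 3 of the other noncoding hosts, 3 snoRNP proteins and 3 NMD and exon junction factors, and limma called 3 of the latter with either pseudocount. Of the annotated intronic hosts limma called 32 higher and 21 lower with either pseudocount. The definition by single transcripts, chosen after seeing the data, gave 33 higher and 50 lower in edgeR's test. Leaving out a library gave 8 to 6119 calls over all genes, 0 to 3 among the 6 host genes and 0 to 6 among the other noncoding hosts. It gave 0 to 7 among the snoRNP proteins and 0 to 6 among the NMD and exon junction factors. Among the annotated intronic hosts it gave 0 to 33 called higher and 0 to 71 called lower. The cause of these changes was not tested. The calls of all genes split into 1962 higher and 2008 lower with TMM, into 2670 and 915 in limma with a pseudocount of 1, and into 2614 and 896 with 0.1. The log2 fold change of Snhg20 lay between 1.64 and 2.35 over all alternatives. No paired analysis was possible because the columns carry no replicate numbers. Snhg18, Snhg16 and Snhg15 had few counts, and the part of depth in their results was not tested.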
